A study of Mus musculus with 12 samples.

Results

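Resting microglia, the resident macrophages of the brain, express a set of genes that tells them apart from other myeloid cells. Here 9 of these genes were followed by their symbols, chosen as canonical homeostatic identity genes: *P2ry12*, *P2ry13*, *Gpr34*, *Cx3cr1*, *Tmem119*, *Siglech*, *Fcrls*, *Olfml3* and *Sall1*. They and the gene lists below were chosen with earlier results of these data known. Their counts beside those of all genes are thus not an independent test. The identity genes make up 9 of the 55401 gene identifiers in the count files. Each symbol had 1 identifier, and all 9 were among the 16451 genes that passed the filter on low counts.

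Several of these genes encode receptors by which microglia read their surroundings. P2RY12 and P2RY13 are receptors for ADP, and P2RY12 steers microglial processes towards damaged cells. GPR34 is a receptor for lysophosphatidylserine, and CX3CR1 is the receptor for the neuronal chemokine fractalkine (CX3CL1). TMEM119, Siglec-H and FCRLS are surface proteins used as markers, OLFML3 is a secreted matrix protein, and SALL1 is a zinc-finger transcription factor that maintains the microglial program. In brain injury microglia commonly lower these genes as they take up an injury-associated program, and TGF-beta signaling together with PU.1, IRF8 and MEF2 factors maintains the resting program.

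Sorted CD45int CD11b+ microglia from male mice were measured by bulk RNA sequencing in 12 libraries, 3 in each of 4 groups. WT mice (Cx3cr1 wt/wt : Hdac3 loxp/loxp) and miKO mice (Cx3cr1 CreER/wt : Hdac3 loxp/loxp) both carried floxed *Hdac3*, and both received tamoxifen for 5 days at 6 to 8 weeks of age, at least 1 month before surgery. Surgery was either a sham operation or tFCI, a transient focal cerebral ischemia by occlusion of the left middle cerebral artery for 60 min, and cells were taken on day 3. Each library pooled 3 to 4 hemispheres. The groups were thus named WT-Sham and miKO-Sham without ischemia, and WT-tFCI and miKO-tFCI with it. CreER sits in the *Cx3cr1* locus and is driven by its promoter, so that every miKO cell also had only 1 intact copy of *Cx3cr1*. Loss of *Hdac3* and the CreER allele cannot be told apart in any comparison of miKO with WT.

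The targeted gene was lower in the miKO libraries. *Hdac3* lay at 34.98, 44.03 and 46.37 CPM (counts scaled to the size of the library after TMM normalization) in WT-Sham, and at 25.82, 24.97 and 20.88 CPM in miKO-Sham. It lay at 53.98, 52.86 and 43.86 CPM in WT-tFCI and at 36.03, 27.15 and 28.92 CPM in miKO-tFCI. Within each surgery the genotypes did not overlap, and *Hdac3* fell by 0.82 on the log2 scale in miKO-Sham (edgeR, adjusted p = 0.00223) and by 0.71 in miKO-tFCI (edgeR, adjusted p = 0.0113), each compared to WT with the same surgery.

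The libraries held 7697864 to 9452222 counts on genes, and replicate 1 of each group was labeled batch 1, replicates 2 and 3 batch 2. Replicates 1 and 2 of miKO-Sham were unusually close to each other (chi-square of 2.82 per degree of freedom, against 3.65 to 76.6 for the other pairs of replicates) although they carry different batch labels. They still differed beyond sampling noise and were kept apart. Replicate 3 of miKO-Sham and replicate 1 of miKO-tFCI stood apart from the rest of their groups, and results that turn on them are given without them. Replicate 1, the batch 1 library, also stood apart in WT-Sham (24.5 and 35.8, against 5.1 between replicates 2 and 3). The same held in WT-tFCI (19.2 and 20.4, against 3.65). In these groups and miKO-tFCI, batch and a single odd library cannot be told apart. The replicates were taken as separate pools of mice, and p-values measure the spread between these libraries.

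The identity genes differed widely in level in WT-Sham microglia. Per length of exon sequence, the order in WT-Sham was *Tmem119* (1547 ± 133.8 RPKM, SD, n = 3), *Fcrls* (1314 ± 129.7), *P2ry12* (1154 ± 208.4), *Cx3cr1* (857.2 ± 120.6), *Gpr34* (553.1 ± 132.8), *Siglech* (523.7 ± 12.64), *P2ry13* (427.5 ± 144.2), *Olfml3* (386.8 ± 30.84) and *Sall1* (68.13 ± 3.581). Neighbours in that order overlapped between libraries except at 2 steps, from *Cx3cr1* to *Gpr34* and from *Olfml3* to *Sall1*. The transcription factor *Sall1* was thus the lowest of the 9 genes in RPKM, as it was in the other 3 groups.

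The order changed between groups. *Fcrls* became the highest in the other 3 groups, at 2242 ± 86.42 RPKM in miKO-Sham, 1648 ± 206.8 RPKM in WT-tFCI and 1537 ± 429.6 RPKM in miKO-tFCI, without overlap with the next gene in any of them. *Olfml3* moved from the eighth place in WT-Sham to the third in WT-tFCI, at 431.3 ± 14.36 RPKM. *Cx3cr1* and *Siglech* were the seventh and the eighth in miKO-tFCI, at 97.15 ± 29.07 and 78.43 ± 5.949 RPKM, and their libraries overlapped there.

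**Figure D1:**
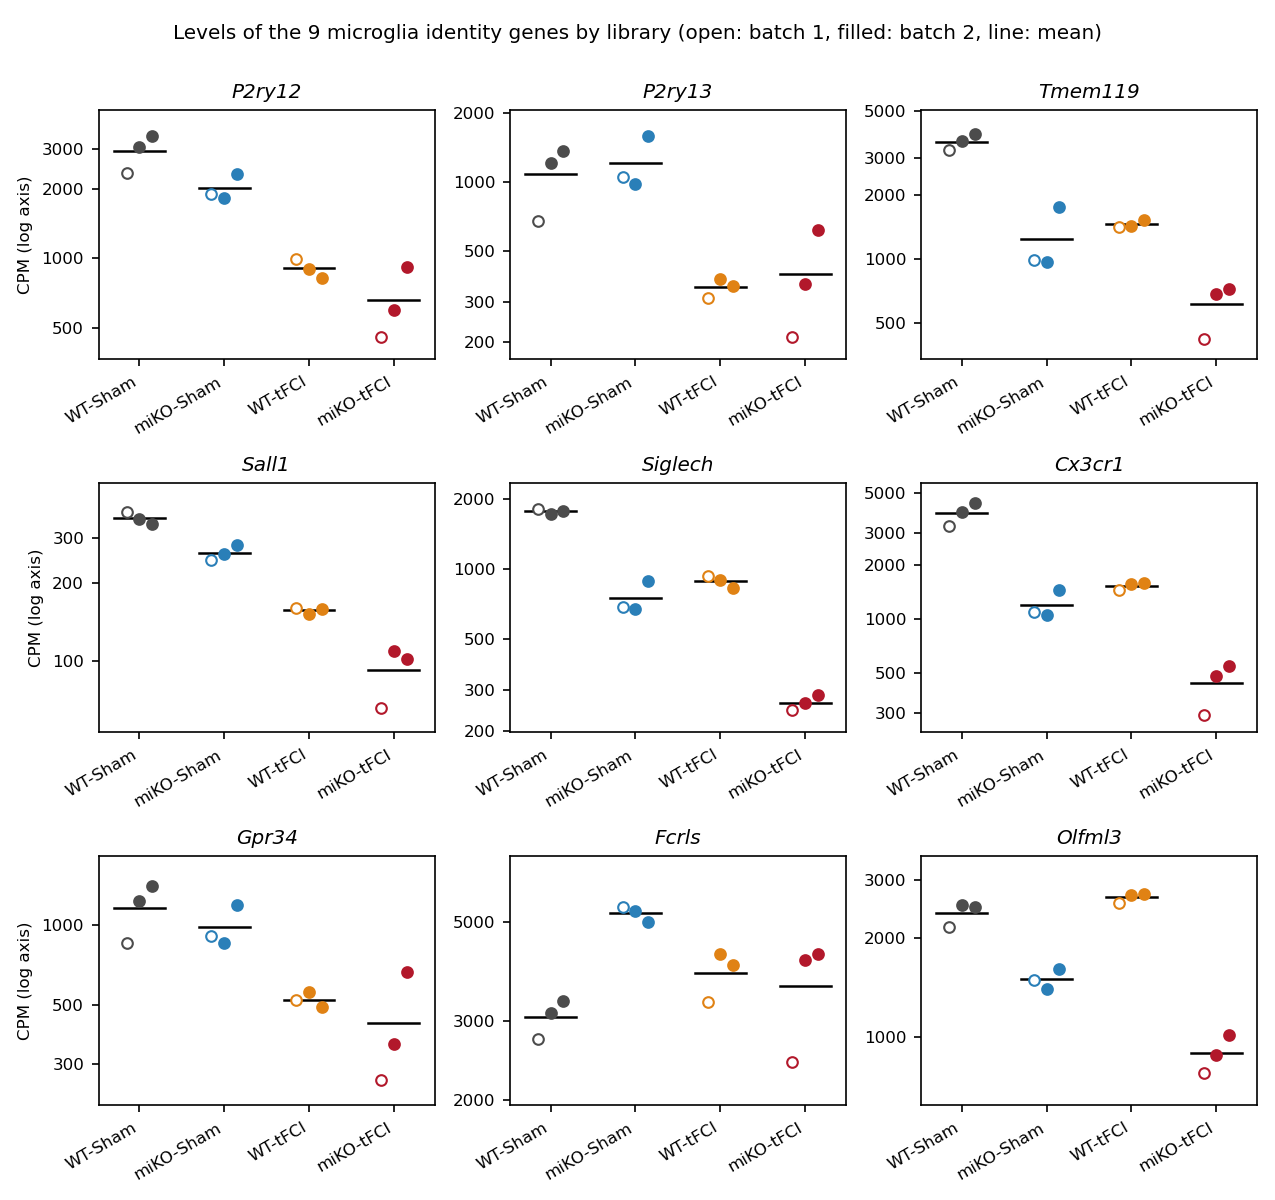
Level of each of the 9 identity genes in CPM on a log axis, by group. Each point is 1 library (open for batch 1, filled for batch 2) and the line is the mean of 3 libraries. *Siglech*, *Cx3cr1* and *Tmem119* were lower in miKO at both surgeries, *Fcrls* was highest in miKO-Sham, and *Olfml3* was low in the miKO groups.

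Of the 9 genes, 4 lie on chromosome 3 (GRCm38), all on the minus strand. *P2ry12* (chr3:59216272-59262871) and *P2ry13* (chr3:59207892-59210882) are neighbours inside the gene *Med12l*, which is read from the other strand. *Fcrls* (chr3:87250758-87263738) and *Olfml3* (chr3:103722222-103738001) lie elsewhere on that chromosome. The others are *Tmem119* (chr5:113793729-113800516, minus), *Siglech* (chr7:55768178-55778925, plus), *Sall1* (chr8:89027235-89044162, minus), *Cx3cr1* (chr9:119901616-120069879, minus) and *Gpr34* (chrX:13632089-13640858, plus, inside *Cask* on the other strand). The library kit does not mark strand, so that reads from both strands of a shared exon cannot be told apart. Shared exon sequence was small, with 9 bases between *P2ry12* and *Med12l* and 78 bases (1.73% of the exon bases of *Cx3cr1*) between *Cx3cr1* and the antisense gene *Gm33858*. *Med12l* had a mean of 123.5 CPM in WT-Sham against 2939 CPM for *P2ry12*, *Gm33858* had 62.78 CPM against 3862 CPM for *Cx3cr1*, and *Cask* had 78.39 CPM against 1156 CPM for *Gpr34*.

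RefSeq promoters (GRCm38.p6) were found for 7 of the 9 genes, in 9 windows of 250 bases before the start, and not for *Tmem119* and *Gpr34*. Of these windows, 5 are shown because they belong to the neighbours *P2ry12* and *P2ry13*, to *Fcrls*, which departed from the rest, and to *Siglech* and *Cx3cr1*, which moved most alike. Capitals mark every match, on either strand, to GAGGAA (the core of a PU.1 site), AGGAAGT (a longer ETS-family core) and CAGACA (a SMAD box). *Cx3cr1* held none of the 3. GAGGAA and AGGAAGT can overlap. The sequences read 5′ to 3′ along each gene and end at the base before its RefSeq start.
P2ry12 (chr3:59262986-59263235, minus): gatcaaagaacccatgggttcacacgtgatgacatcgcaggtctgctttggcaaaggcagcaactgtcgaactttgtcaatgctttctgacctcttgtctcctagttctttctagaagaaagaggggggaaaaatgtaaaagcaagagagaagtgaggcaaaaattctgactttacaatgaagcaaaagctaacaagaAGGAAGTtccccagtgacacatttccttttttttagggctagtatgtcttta
P2ry13 (chr3:59210883-59211132, minus): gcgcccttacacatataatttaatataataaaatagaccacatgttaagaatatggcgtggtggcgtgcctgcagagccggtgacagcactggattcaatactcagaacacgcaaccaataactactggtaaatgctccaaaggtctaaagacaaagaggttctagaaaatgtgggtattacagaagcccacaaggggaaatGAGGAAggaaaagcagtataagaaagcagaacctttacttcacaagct
Fcrls (chr3:87263525-87263774, minus): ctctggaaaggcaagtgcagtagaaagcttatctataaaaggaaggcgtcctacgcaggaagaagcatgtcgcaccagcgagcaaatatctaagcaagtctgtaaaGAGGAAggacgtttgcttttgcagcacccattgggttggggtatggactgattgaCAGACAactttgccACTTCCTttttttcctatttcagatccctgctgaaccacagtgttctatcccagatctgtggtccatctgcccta
Siglech (chr7:55767934-55768183, plus): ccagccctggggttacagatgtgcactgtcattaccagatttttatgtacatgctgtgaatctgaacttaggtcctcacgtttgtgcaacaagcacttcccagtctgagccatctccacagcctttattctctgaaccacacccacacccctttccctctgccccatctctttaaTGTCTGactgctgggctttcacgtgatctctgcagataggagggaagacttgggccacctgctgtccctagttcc
Cx3cr1 (chr9:120068297-120068546, minus): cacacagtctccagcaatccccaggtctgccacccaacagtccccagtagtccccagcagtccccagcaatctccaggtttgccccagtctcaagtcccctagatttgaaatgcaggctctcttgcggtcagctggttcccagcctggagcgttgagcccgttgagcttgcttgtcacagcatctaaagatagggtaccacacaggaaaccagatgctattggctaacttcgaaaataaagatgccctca

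GAGGAA occurred in the windows of *P2ry13* and *Fcrls*, 2 of 9, and in 23.3% of the 32851 promoters of the table. AGGAAGT occurred in those of *P2ry12*, *Fcrls* and *Sall1*, 3 of 9, and in 7.69% of all promoters. The *Sall1* match lay in the window chr8:89042863-89043112 and not in its other windows. That window is inside the gene span given above, and the sequence after its start was not found in annotated *Sall1* transcripts. CAGACA was matched in *Siglech* and *Fcrls*, 2 of 9, and in 17.1% of all promoters. The AGGAAGT match of *P2ry12* began 52 bases before the start, and the GAGGAA match of *P2ry13* 48 bases before it. The RefSeq start of *P2ry12* lies outside the gene span given above, and the sequence after it was not found in its annotated transcripts. Other RefSeq starts lie inside the span. The *Cx3cr1* window is wholly inside its gene span, and most of the *Fcrls* window, with all its marked matches, is inside that of *Fcrls*. The *Siglech* window reaches into its gene span by a few bases. All of these are matches of letters and not measured binding.

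The first comparison asked how the identity genes responded to ischemia in WT microglia. Of the 9 genes, 7 were called lower in WT-tFCI compared to WT-Sham and none higher, where called means an adjusted p under 0.05 with a log2 fold change beyond 0.58 in either direction. Over all genes tested, 11.7% were called lower and 20.7% higher. The median log2 fold change of the 9 genes was -1.19, and that of all genes 0.02. *P2ry12* fell by 68.5%, the most of the 7, and *Siglech* fell by 49.9%, the least. In bulk samples, fewer cells with a transcript and less of it per cell cannot be told apart.

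The ADP receptors fell the most. *P2ry12* lay at 2358, 3059 and 3399 CPM in WT-Sham and at 997.1, 902.7 and 825.1 CPM in WT-tFCI, and it fell by 1.67 on the log2 scale (SE 0.21, edgeR, adjusted p = 1.37e-05). *P2ry13* lay at 671, 1202 and 1369 CPM in WT-Sham and at 310.7, 376.1 and 350.3 CPM in WT-tFCI, and fell by 1.58 (SE 0.26, edgeR, adjusted p = 0.000275). In both genes every tFCI library was below every sham library, with WT-Sham replicate 1 the nearest. The lysophosphatidylserine receptor *Gpr34* had 851.3, 1222 and 1394 CPM in WT-Sham and 519.8, 558 and 489.8 CPM in WT-tFCI, a fall by 1.11 on the log2 scale (SE 0.24, edgeR, adjusted p = 0.002). Here too WT-Sham replicate 1 was the lowest sham library, and the groups did not overlap.

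*Cx3cr1* fell by 1.33 on the log2 scale (SE 0.17, edgeR, adjusted p = 2.16e-05), from 3291, 3921 and 4373 CPM in WT-Sham to 1450, 1554 and 1579 CPM in WT-tFCI. *Tmem119* fell by 1.29 (SE 0.20, edgeR, adjusted p = 0.000117), from 3264, 3594 and 3883 CPM to 1420, 1434 and 1529 CPM. *Siglech*, the lectin Siglec-H, fell by 1.00 (SE 0.14, edgeR, adjusted p = 5.63e-05), from 1808, 1725 and 1782 CPM to 935.8, 892.5 and 831.1 CPM. In these surface markers the 3 libraries of each group lay close together and the groups were far apart. *Sall1* fell by 1.19 (SE 0.15, edgeR, adjusted p = 2.08e-05), from 378.2, 357.4 and 340.5 CPM to 160, 152.6 and 158.8 CPM.

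*Fcrls* and *Olfml3* were not called. *Fcrls* had 2734, 3136 and 3327 CPM in WT-Sham and 3307, 4238 and 3995 CPM in WT-tFCI, a log2 difference of 0.32 (95% confidence interval -0.03 to 0.67, edgeR, adjusted p = 0.134). *Olfml3* had 2165, 2511 and 2474 CPM in WT-Sham and 2557, 2691 and 2724 CPM in WT-tFCI, a log2 difference of 0.16 (95% confidence interval -0.13 to 0.45, edgeR, adjusted p = 0.379). All 3 tFCI libraries of *Olfml3* were above the sham libraries, although by little. The intervals leave out a fall as large as that of the other 7 genes.

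**Figure D2:**
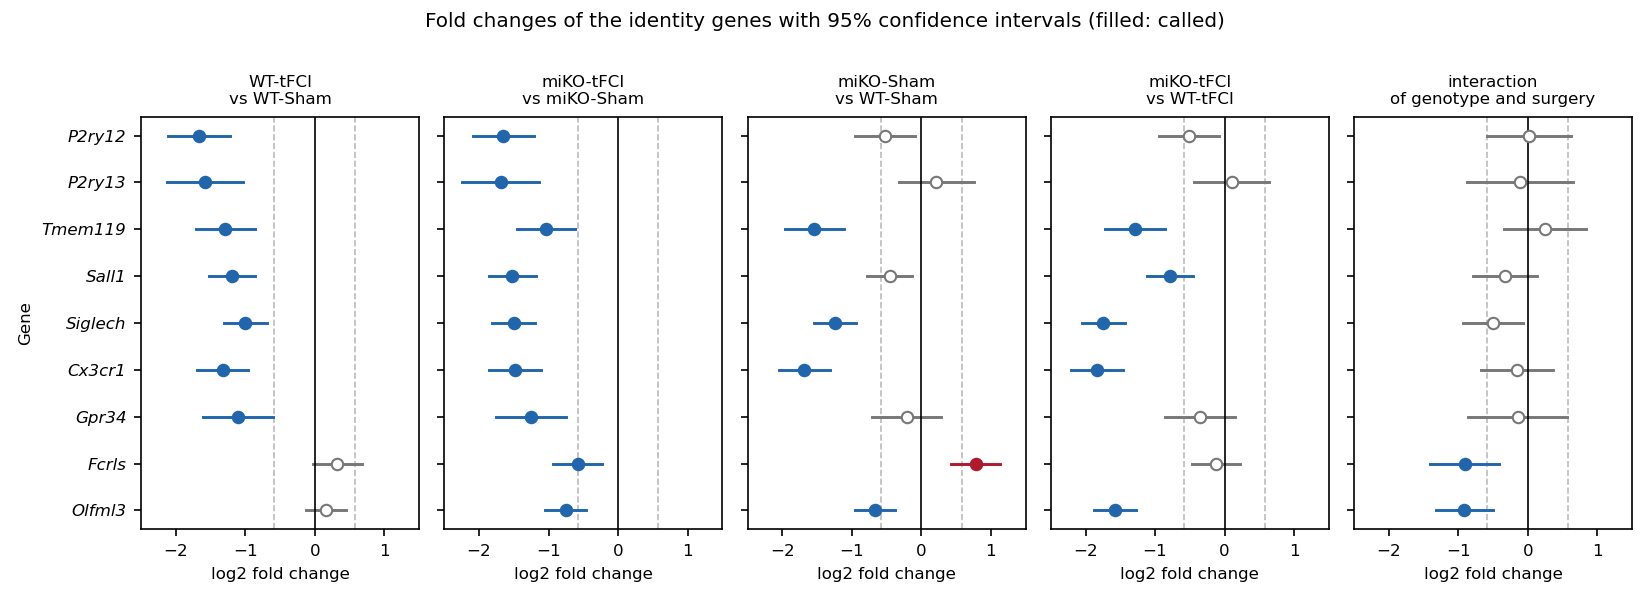
Log2 fold change of each identity gene (x axis) with its 95% confidence interval, for 4 comparisons and the interaction. Filled points were called, blue lower and red higher, and dashed lines mark a log2 fold change of 0.58 in either direction. Ischemia panels show falls in 7 and 9 of 9 genes, while the genotype panels split the set.

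The same comparison within miKO microglia gave a fall in every gene of the set. All 9 were called lower in miKO-tFCI compared to miKO-Sham, against 13.9% of all genes called lower and 21.7% called higher. The median log2 fold change was -1.48 for the 9 genes and 0.03 for all genes. In each of the 9 genes the 3 miKO-tFCI libraries lay below the 3 miKO-Sham libraries. The share of all genes without such overlap was not counted, here or in the other comparisons. This comparison and the one within WT share no libraries.

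*P2ry12* lay at 1903, 1838 and 2338 CPM in miKO-Sham and at 454.2, 596.7 and 920.3 CPM in miKO-tFCI, and it fell by 1.65 on the log2 scale (SE 0.21, edgeR, adjusted p = 1.6e-05). *P2ry13* fell by 1.69 (SE 0.26, edgeR, adjusted p = 0.000152), from 1050, 980.3 and 1582 CPM to 209.6, 356.8 and 618.1 CPM. *Gpr34* fell by 1.25 (SE 0.24, edgeR, adjusted p = 0.000721), from 903.4, 853.2 and 1188 CPM to 260.9, 355.9 and 660.9 CPM. In these 3 receptor genes replicate 3 was the highest library in both groups, and miKO-tFCI replicate 1 the lowest of all.

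*Siglech* went from 685.1, 674.7 and 888.9 CPM to 246.2, 263.4 and 286.4 CPM, a fall by 1.50 on the log2 scale (SE 0.15, edgeR, adjusted p = 1.27e-06). *Cx3cr1* went from 1092, 1052 and 1446 CPM to 291.3, 478.1 and 543.7 CPM, a fall by 1.48 (SE 0.17, edgeR, adjusted p = 8.24e-06). *Sall1* went from 246.6, 260.1 and 282.4 CPM to 65.87, 109.5 and 102 CPM, a fall by 1.52 (SE 0.16, edgeR, adjusted p = 2.39e-06). Within miKO-tFCI, *Siglech* was the steadiest of the 3, and replicate 1 was the lowest library in all of them. *Tmem119* went from 996.7, 972.8 and 1769 CPM to 422.2, 688.7 and 728.9 CPM, a fall by 1.04 (SE 0.20, edgeR, adjusted p = 0.000631).

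*Olfml3* and *Fcrls* fell less than the other genes. *Olfml3* had 1491, 1397 and 1609 CPM in miKO-Sham and 777.2, 886.4 and 1018 CPM in miKO-tFCI, a fall by 0.75 on the log2 scale (SE 0.14, edgeR, adjusted p = 0.000424). *Fcrls* had 5394, 5296 and 5006 CPM in miKO-Sham and 2431, 4103 and 4227 CPM in miKO-tFCI, a fall by 0.58 (SE 0.17, edgeR, adjusted p = 0.0102). Replicate 1 of miKO-tFCI was far below the other libraries in *Fcrls*, and the log2 fold change was -1.15 within batch 1 and -0.31 within batch 2. The call of *Fcrls* was past the fold threshold only narrowly and was lost in 9 of 22 alternative fits, including those without miKO-tFCI replicate 1 and without miKO-Sham replicate 1, with log2 fold changes from -0.70 to -0.33.

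The next comparison asked what the miKO genotype did to identity genes in the absence of ischemia, and the set split. Of the 9 genes, 4 were called lower in miKO-Sham compared to WT-Sham and 1 higher, against 6.84% of all genes called lower and 8.35% called higher. Those lower were *Cx3cr1*, *Tmem119*, *Siglech* and *Olfml3*, and the one higher was *Fcrls*. The median of the 9 genes was -0.52 on the log2 scale, and that of all genes 0.04. This comparison shares its WT-Sham libraries with that of ischemia in WT, and its miKO-Sham libraries with that in miKO.

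*Cx3cr1* fell by 1.68 on the log2 scale (SE 0.18, edgeR, adjusted p = 4.54e-06) to 30.98% of the WT-Sham mean. Since 1 copy of *Cx3cr1* carries CreER in these mice, its fall cannot be told apart from the loss of that copy. *Tmem119* fell by 1.54 (SE 0.20, edgeR, adjusted p = 4.62e-05) to 34.8% of the WT-Sham mean, and *Siglech* by 1.24 (SE 0.14, edgeR, adjusted p = 1.4e-05) to 42.31%. *Olfml3* fell by 0.67 (SE 0.14, edgeR, adjusted p = 0.00258) to 62.88% of the WT-Sham mean. None of these 4 genes had a miKO-Sham library that reached the lowest WT-Sham library, and miKO-Sham replicate 3 was the highest miKO-Sham library in each.

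*Fcrls* rose by 0.79 on the log2 scale (SE 0.17, edgeR, adjusted p = 0.00307), to 170.7% of the WT-Sham mean, with every miKO-Sham library above every WT-Sham library. *P2ry12* and *Sall1* lay lower in all 3 miKO-Sham libraries but were not called, with log2 differences of -0.52 (95% confidence interval -0.95 to -0.10, edgeR, adjusted p = 0.0872) and -0.45 (95% confidence interval -0.78 to -0.13, edgeR, adjusted p = 0.0509). *P2ry13* differed by 0.22 (95% confidence interval -0.32 to 0.75, edgeR, adjusted p = 0.613) and *Gpr34* by -0.21 (95% confidence interval -0.71 to 0.29, edgeR, adjusted p = 0.6). The groups overlapped in these 2 receptor genes.

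This comparison depended on the scaling of the libraries. The TMM factors were 0.8643 to 0.9629 in miKO-Sham and 1.048 to 1.111 in WT-Sham, and *Apoe*, the apolipoprotein carried by injury-associated microglia, took a mean of 47470 CPM in miKO-Sham against 1129 CPM in WT-Sham. Scaled by library size alone, the median log2 fold change of all genes was -0.23 in place of 0.04, and 25.4% of all calls were higher in place of 55%. Under that scaling *Fcrls* was no longer called (log2 fold change 0.51), *P2ry12* (-0.80) and *Sall1* (-0.73) were called lower, and *P2ry13*, not called in either, had -0.05 in place of 0.22. The other 4 calls held, at lower values. The share of higher calls also moved for miKO-tFCI vs. WT-tFCI (29.6% in place of 45.2%) and the interaction (49.8% in place of 32%), and the median of all genes moved to 0.16 in place of 0.03 for miKO-tFCI vs. miKO-Sham and to 0.15 in place of -0.02 for the interaction.

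**Figure D3:**
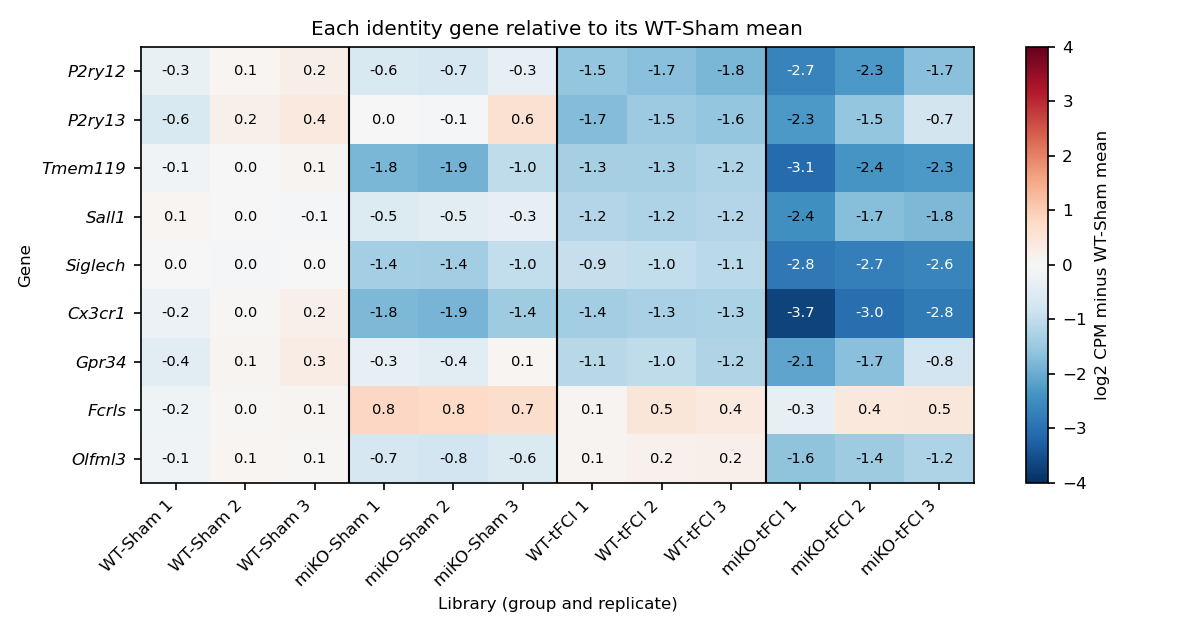
Log2 CPM of each identity gene in each of the 12 libraries minus its mean in WT-Sham, with the values printed and colored from blue (lower) to red (higher). *Cx3cr1* reached -3.72 in miKO-tFCI replicate 1, while *Fcrls* was above 0 in every library of miKO-Sham and WT-tFCI.

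After ischemia the genotypes again differed in part of the set. Of the 9 genes, 5 were called lower in miKO-tFCI compared to WT-tFCI and none higher, against 4.8% of all genes called lower and 3.96% called higher. The 5 genes were *Cx3cr1*, *Siglech*, *Olfml3*, *Tmem119* and *Sall1*. The median of the 9 genes was -0.78 on the log2 scale, and that of all genes 0.04. The tFCI libraries of this comparison are those used above.

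*Cx3cr1*, again with 1 copy replaced, fell by 1.84 on the log2 scale (SE 0.18, edgeR, adjusted p = 7.79e-06), and *Siglech* fell by 1.74 (SE 0.15, edgeR, adjusted p = 3.37e-06). *Siglech* was eleventh by p-value among all genes tested. *Olfml3* fell by 1.58 (SE 0.14, edgeR, adjusted p = 4.03e-06), *Tmem119* by 1.29 (SE 0.20, edgeR, adjusted p = 0.000715) and *Sall1* by 0.78 (SE 0.16, edgeR, adjusted p = 0.0048). In these 5 genes the groups did not overlap, and the share of all genes without overlap was not counted. The log2 differences were below 0 within batch 1 and within batch 2, from -1.28 to -2.31 and from -0.56 to -1.65. Batch 1 holds 1 library in each group, and the -0.56 of *Sall1* within batch 2 is short of the fold threshold.

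The ADP receptors, *Gpr34* and *Fcrls* were not called between the genotypes after ischemia. *P2ry12* differed by -0.50 (95% confidence interval -0.94 to -0.07, edgeR, adjusted p = 0.131), with -1.13 within batch 1 and -0.22 within batch 2. *P2ry13* differed by 0.11 (95% confidence interval -0.44 to 0.65, edgeR, adjusted p = 0.835), with -0.57 and 0.37 within the batches. *Gpr34* differed by -0.35 (95% confidence interval -0.86 to 0.15, edgeR, adjusted p = 0.37), with -0.99 and -0.11. In these 3 receptor genes miKO-tFCI replicate 1 was below every WT-tFCI library, while replicate 3 was above every WT-tFCI library in *P2ry13* and *Gpr34* and above 2 of 3 in *P2ry12*. Without replicate 3, *P2ry12* (log2 fold change -0.78, edgeR, adjusted p = 0.0172) and *Gpr34* (-0.73, edgeR, adjusted p = 0.028) were called lower, and *P2ry13* was not (-0.25). *Fcrls* differed by -0.12 (95% confidence interval -0.47 to 0.23, edgeR, adjusted p = 0.692).

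Whether ischemia acted differently in the genotypes was tested by the interaction, the log2 fold change by tFCI in miKO minus that in WT. Of the 9 genes, 2 were called, both lower, against 2.68% of all genes called lower and 1.26% called higher. They were *Olfml3* (-0.91, SE 0.19, edgeR, adjusted p = 0.0137) and *Fcrls* (-0.91, SE 0.23, edgeR, adjusted p = 0.0393). Both were the genes that showed no fall by tFCI in WT and fell in miKO. The interaction was -1.18 and -0.78 for *Olfml3* and -1.42 and -0.66 for *Fcrls* within batches 1 and 2. The call of *Fcrls* was lost in 10 of 21 alternative fits (adjusted p up to 0.17 in edgeR, without the batch term), among them those that left out 1 of WT-Sham replicates 2 and 3, miKO-Sham replicates 1 and 2, any WT-tFCI library or miKO-tFCI replicate 2. That of *Olfml3* was lost without WT-tFCI replicate 2 or without WT-tFCI replicate 3 (adjusted p up to 0.0537 in edgeR).

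The other 7 genes were not called in the interaction. *Siglech* came nearest, at -0.50 (95% confidence interval -0.93 to -0.07, edgeR, adjusted p = 0.205). *P2ry12* was at 0.02 with a 95% confidence interval from -0.59 to 0.63, so that a difference as large as the fold threshold of 0.58 was not left out. The intervals of *P2ry13*, *Tmem119*, *Sall1*, *Cx3cr1* and *Gpr34* also reached beyond 0.58 on at least 1 side.

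Taking both factors at once, 7 of the 9 genes had their lowest group mean in miKO-tFCI. *Cx3cr1* had 11.33% of its WT-Sham mean there, *Siglech* 14.98%, *Tmem119* 17.13%, *P2ry12* 22.36%, *Sall1* 25.77%, *Gpr34* 36.85% and *Olfml3* 37.5%, although *P2ry12* and *Gpr34* overlapped with WT-tFCI. *P2ry13* was the exception among the receptors, with 36.53% in miKO-tFCI and 31.99% in WT-tFCI, and the libraries of these groups overlapped. *Fcrls* had 117% of its WT-Sham mean in miKO-tFCI. Summed over the 9 genes, the level was 17520 to 22340 CPM in WT-Sham, 13320 to 16110 in miKO-Sham, 11660 to 12800 in WT-tFCI and 5159 to 9104 in miKO-tFCI, without overlap between any of the groups.

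Within groups the genes varied together. Deviations of log2 CPM from the group mean, over 12 libraries, correlated at 0.98 between *P2ry12* and *Gpr34*, 0.97 between *P2ry13* and *Gpr34* and 0.93 between *P2ry12* and *P2ry13*. The deviations of *Siglech* correlated at 0.13 with those of *Fcrls*, the lowest of the 36 pairs. The points share library, depth and batch, and genes are not independent replicates. *P2ry13* had a coefficient of variation of 52.4% in miKO-tFCI and 33.74% in WT-Sham, the highest of the 9 genes there, and *Siglech* had 7.585% and 2.414%, the lowest. In the other 2 groups *Tmem119* (36.35% in miKO-Sham) and *Fcrls* (12.55% in WT-tFCI) spread the most, and *Siglech* had 16.11% and 5.94%.

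**Figure D4:**
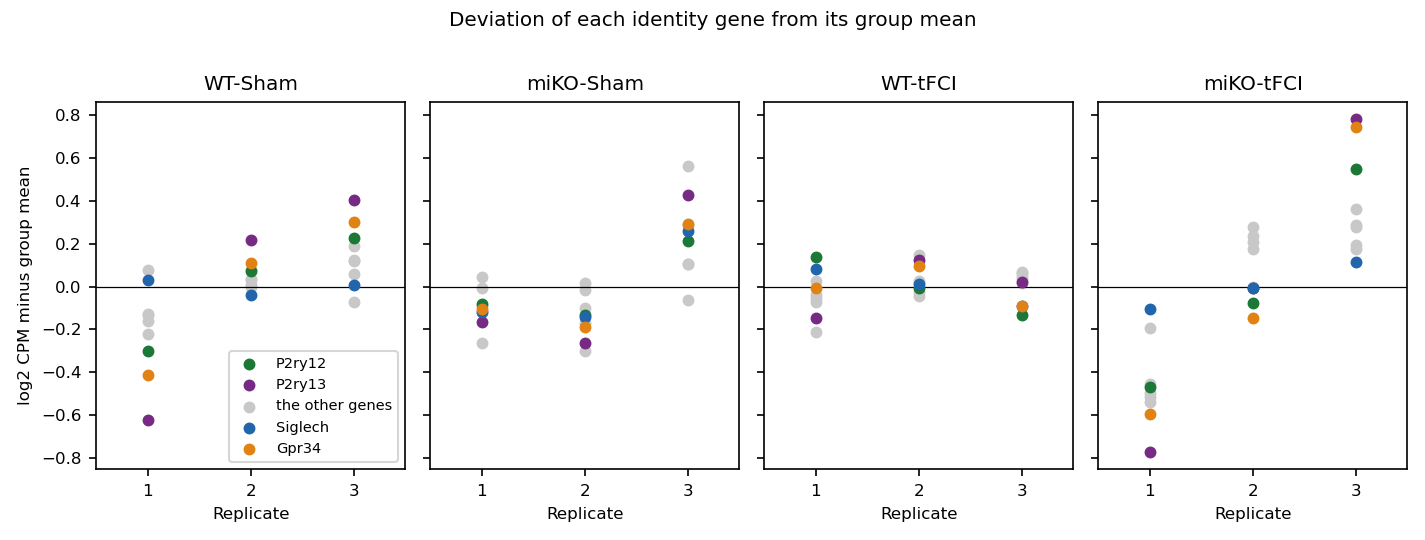
Log2 CPM of each identity gene minus the mean of its group (y axis) by replicate (x axis), 1 panel per group, with 4 genes in color and the other 5 in gray. *P2ry12*, *P2ry13* and *Gpr34* moved together in the sham groups and in miKO-tFCI, where *P2ry13* spanned -0.78 to 0.78, while *Siglech* stayed near 0 in all groups except miKO-Sham.

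The genes whose batch-adjusted profile over the 12 libraries was most like the mean of the 9 were *Adgrg1* (r = 0.993), *Dock10* (0.992), *Slco2b1* (0.991), *P3h2* (0.99), *Ptpro* (0.99), *Tmem173* (0.989), *Cables1* (0.988), *Gm10790* (0.986), *Pnrc1* (0.985) and *Slc46a3* (0.985), out of 9309 genes with at least 10 CPM. *Adgrg1* and *Slco2b1* stand on the list of other microglia signature genes. One gene at a time, *Siglech* and *Cx3cr1* were each other's nearest (r = 0.99), and the nearest of *P2ry12* was *Arhgap5* (0.992), of *P2ry13* *Slc25a45* (0.993), of *Tmem119* *B4galt4* (0.991), of *Sall1* *Rcsd1* (0.994), of *Gpr34* *Lpar6* (0.982), of *Fcrls* *Rab27a* (0.986) and of *Olfml3* *Arhgef11* (0.972). *Fcrls* stood apart from the other identity genes, with r from -0.28 with *Tmem119* to 0.33 with *P2ry13*. These correlations describe 4 groups that differ in level and carry no p-value.

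Beyond these 9 genes, more genes of the microglia signature were called lower than higher in each comparison between groups. Of 42 other signature genes, 25 were called lower and none higher in WT-tFCI compared to WT-Sham, 33 lower and 2 higher in miKO-tFCI compared to miKO-Sham, 14 lower and 5 higher in miKO-Sham compared to WT-Sham, and 19 lower and 3 higher in miKO-tFCI compared to WT-tFCI. Over all genes tested, 11.7%, 13.9%, 6.84% and 4.8% were called lower in these comparisons, and 20.7%, 21.7%, 8.35% and 3.96% higher. The median log2 fold changes of the 42 genes were -0.71, -0.99, -0.25 and -0.48, and the identity genes had -1.19, -1.48, -0.52 and -0.78. Among the most abundant, *Cst3*, a secreted inhibitor of cathepsins, fell by 1.36 on the log2 scale in WT-tFCI, and *Csf1r*, the receptor for the survival factor CSF1, fell by 0.61. *Ctss*, the gene of the protease cathepsin S, was not called there (-0.13).

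Genotype moved some signature genes further than any of the 9. *Upk1b* had a mean of 190.1 CPM in WT-Sham and 1.103 CPM in miKO-Sham and fell by 7.39 on the log2 scale (SE 0.33, edgeR, adjusted p = 2.99e-09), and *Gpr165* fell by 6.36 from 13.05 CPM. *Cd81*, a tetraspanin, rose by 1.97 in miKO-Sham and by 0.95 in miKO-tFCI, and *Ctss* rose by 1.65 and 0.70. *Csf1r* (0.13) was not called in miKO-Sham compared to WT-Sham. A signature gene could thus lie higher, lower or near its WT level in miKO-Sham, as in the set of 9.

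Regulators of the resting program were called lower more often than higher after ischemia. Of 22 regulators, 8 were called lower and 1 higher by tFCI in WT, where 11.7% and 20.7% of all genes were, 16 lower and 1 higher by tFCI in miKO, 1 lower and 4 higher in miKO-Sham compared to WT-Sham, and 5 lower and none higher in miKO-tFCI compared to WT-tFCI. The shares of all genes called lower and higher in the last 3 were 13.9% and 21.7%, 6.84% and 8.35%, and 4.8% and 3.96%. The one lower in miKO-Sham was *Sall3*, a relative of *Sall1*, at -0.71 (SE 0.15, edgeR, adjusted p = 0.00337), and it was also lower in miKO-tFCI, at -1.15. The transcription factor *Cebpa* rose in miKO-Sham by 1.03 on the log2 scale. By tFCI in WT, *Maf* fell by 1.09, *Zfhx3* by 1.12, *Mef2c* by 0.77 and *Mef2a* by 0.69, *Irf8* had -0.51 without a call, and *Cebpb* rose by 0.68.

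Genes of ligands and of ADP and adenosine handling, 6 in all, moved both ways after ischemia. *Entpd1*, the ectonucleotidase CD39 that breaks down ATP and ADP, had 578 CPM in WT-Sham and fell by 1.28 on the log2 scale in WT-tFCI and by 1.75 in miKO-tFCI, each compared to sham. *Adora3*, an adenosine receptor gene, fell by 0.93 and 1.41. *Cx3cl1*, the ligand of CX3CR1, had 0.6153 CPM in WT-Sham and 5.935 CPM in WT-tFCI, a rise by 3.32 at a low level, and *Nt5e*, *Il34* and *Csf1* were called higher as well. *Nt5e* (0.2629 CPM) and *Il34* (0.2956 CPM) were near 0 in WT-Sham and passed the filter through tFCI libraries. In miKO-Sham only *Cx3cl1* was called (2.09), and in miKO-tFCI compared to WT-tFCI only *Csf1* (-0.76), as in the interaction.

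Injury-associated genes moved the other way. All 23 were called higher and none lower by tFCI in WT (median log2 fold change 3.34), 17 higher and 2 lower by tFCI in miKO, 19 higher and none lower in miKO-Sham compared to WT-Sham (median 2.17), and 16 higher and 2 lower in miKO-tFCI compared to WT-tFCI. Over all genes tested, 20.7%, 21.7%, 8.35% and 3.96% were called higher in these comparisons. This list was chosen with earlier results of these data known, so that its counts are not an independent test. *Apoe* rose by 5.39 on the log2 scale in miKO-Sham (SE 0.71, edgeR, adjusted p = 0.000929) and *Spp1*, the gene of osteopontin, by 11.15 in WT-tFCI (SE 0.90, edgeR, adjusted p = 2.74e-05). Their sum was 48870 CPM in miKO-Sham replicate 3 and 108600 and 109100 CPM in the other 2 libraries of that group. Replicate 3 was also the miKO-Sham library with the highest *Tmem119*, *Siglech*, *Cx3cr1*, *P2ry12*, *P2ry13* and *Gpr34* and the lowest *Fcrls*. Without it, *Tmem119* and the other called genes kept their calls in miKO-Sham.

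**Figure D5:**
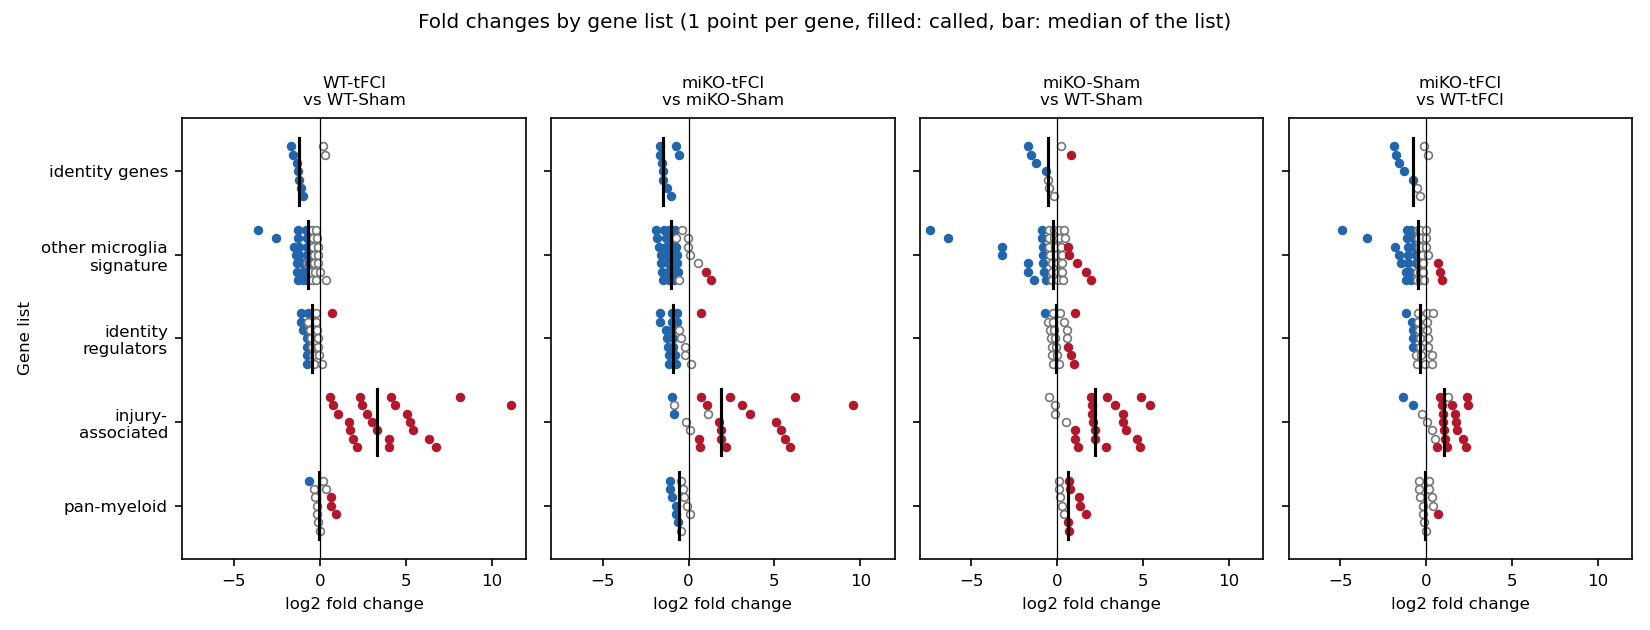
Log2 fold change (x axis) of each gene of 5 lists (y axis) in 4 comparisons, with filled points for called genes (blue lower, red higher) and a black bar for the median of the list. The median of the identity genes lies left of 0 and that of the injury-associated genes right of 0 in all 4 panels, with single genes on the other side, such as *Fcrls* and *Olfml3* in WT-tFCI vs. WT-Sham.

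General myeloid genes were in part higher in miKO-Sham. Of 12, 7 were called higher and none lower in miKO-Sham compared to WT-Sham, 3 higher and 1 lower by tFCI in WT, none higher and 6 lower by tFCI in miKO, and 1 higher and none lower in miKO-tFCI compared to WT-tFCI. Over all genes tested, 8.35%, 20.7%, 21.7% and 3.96% were called higher in these comparisons, and 6.84%, 11.7%, 13.9% and 4.8% lower. The counts by tFCI in WT were near those shares. *Laptm5* and *Tyrobp*, genes of most myeloid cells, rose by 0.70 and 0.71 on the log2 scale in miKO-Sham. *Itgam*, which encodes the CD11b used for sorting, and *Ptprc*, which encodes CD45, were not called in any of these 4 comparisons.

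Markers of other myeloid cells also differed between the groups. The sum of 15 monocyte and macrophage markers was 17.65 to 113.8 CPM in WT-Sham, 77.75 to 142.3 in miKO-Sham, 410.9 to 794.8 in WT-tFCI and 557.7 to 1368 in miKO-tFCI, and 7, 10, 2 and 5 of the 14 tested were called higher by tFCI in WT, by tFCI in miKO, in miKO-Sham and in miKO-tFCI. Over all genes tested, 20.7%, 21.7%, 8.35% and 3.96% were called higher in these comparisons. Some of these markers, such as *Vcan* (0.2146 CPM in WT-Sham), passed the filter on low counts only through tFCI libraries. *Ccr2*, which defines monocytes, had means of 6.1, 7.337, 9.313 and 38.91 CPM in the same order of groups. The 13 border-associated macrophage markers summed to 594.4 to 730.5, 1474 to 1694, 765.5 to 1103 and 1096 to 2290 CPM, mostly through *Stab1*, which rose by 1.43 on the log2 scale in miKO-Sham, while *Mrc1* was not called in any comparison. The 12 neutrophil markers summed to 638.3 to 1391, 1124 to 1148, 533.2 to 595.9 and 1006 to 1301 CPM, and 8 dendritic cell markers to 19.23 to 23.8, 14.57 to 16.27, 19.97 to 117.5 and 49.77 to 360.9 CPM. Among the neutrophil markers, *Csf3r* had means of 565.4, 763.7, 351.7 and 260.9 CPM and was called lower by tFCI in WT and in miKO. *S100a8* had means of 102.5, 90.28, 61 and 298 CPM without a call. In miKO-tFCI compared to WT-tFCI, 3 of the 11 neutrophil markers tested were called higher and none lower, against 3.96% and 4.8% of all genes. Among them, *Mmp8* and *Cxcr2* were low elsewhere (means of 1.07 and 0.9112 CPM in WT-tFCI) and passed the filter mainly through miKO-tFCI. Only *S100a4* of these lists was at 0, in miKO-Sham. The highest of these sums are below the lowest sum of the 9 identity genes. The lists differ in the number and level of their genes, so that these sums do not give shares of cells.

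Markers of cells outside the myeloid lineage were also measured. Astrocyte markers summed to 150.9 to 208.5 CPM over the sham libraries and to 210.7 to 1561 CPM over the tFCI libraries, endothelial and mural markers to 15.24 to 31.37 and 71.15 to 341.6 CPM, oligodendrocyte markers to 151.1 to 221 and 183.9 to 336.2 CPM, and neuron markers to 2.667 to 17.2 and 5.361 to 20.86 CPM. T and NK cell markers stayed at 2.462 to 15.49 CPM in all libraries, with *Ncr1* at 0 in all groups. The B cell sum, 752.5 to 856.9 CPM in WT-Sham and 253.4 to 275.1 CPM in miKO-tFCI, came mostly from *Ighm* and *Blnk*. By tFCI in WT, 5 of 10 astrocyte, 8 of 10 endothelial and mural and 6 of 8 oligodendrocyte markers tested were called higher, against 20.7% of all genes tested. Several of them were near 0 in sham, such as *Tek* (0.07469 CPM in WT-Sham, 3.735 CPM in WT-tFCI), *Rgs5* and *Opalin*. Such markers passed the filter on low counts only through tFCI libraries, so that these counts are not an independent test. Several of these sums were highest in miKO-tFCI replicate 1, the library with the lowest sum of the 9 identity genes (5159 CPM, against 7838 and 9104 in replicates 2 and 3). In replicates 1, 2 and 3 of that group, astrocyte markers summed to 1561, 339.4 and 352 CPM, monocyte and macrophage markers to 1368, 557.7 and 625.8 CPM, and dendritic cell markers to 360.9, 49.77 and 52.65 CPM. Border-associated macrophage and neutrophil markers were lowest in replicate 1, at 1096 and 1006 CPM. Without that library, 8 of the 9 identity genes were called lower in miKO-tFCI compared to miKO-Sham, and 5 compared to WT-tFCI. The part of other cells in the falls of the identity genes was not tested.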

How the data were processed

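RNA of sorted microglia was made into SMART-Seq v4 libraries and sequenced in pairs of reads. The authors' counts per gene were deposited without normalization, 1 file per library. The submitters' processing notes name FastQC 0.11.9, Trim Galore, HISAT2 2.2.1, SAMtools and HTSeq 1.99.2 with mm10 and GRCm38.p6. The strand option and annotation release of the counting are not given in the sources used here. The methods name a Cytek Aurora sorter and the labels a CytoFLEX SRT.

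Identifiers were matched to GENCODE M21 (55141 of 55401). Lines for reads on no gene were left out, so that 30.68% to 38.53% of reads were used. The tests used edgeR 4.0.16 under R 4.3.3. After filterByExpr and TMM, 1 robust quasi-likelihood model held all 12 libraries with terms for group and batch. Its common biological coefficient of variation was 0.199. P-values were adjusted after Benjamini and Hochberg over 16451 genes. A gene was called where its adjusted p was below 0.05 and its log2 fold change exceeded 0.58 in either direction. RPKM used the merged exon length of each gene, and log2 CPM a prior count of 2. The model was tested on simulated data. Alternatives were other scalings, filters, DESeq2 1.42.0, no batch term, batch 2 alone, only the groups compared, a replicate block and each library left out.

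The 9 genes and all gene lists were chosen with earlier results of these data known. Named in the text are all 9 genes and *Hdac3*. From each other list come its most abundant genes and the called genes that moved most, together with the nearest profiles and genes that overlap a member. *Itgam*, *Ptprc*, *Ncr1*, *Ighm*, *Blnk* and *S100a4* were named outside that rule for what they mark, after their values were seen. Some genes of the lists are not reported here by name.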

Additional observations from a re-analysis of the deposited data

Results flagged for a closer look

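In 2 genes the response to ischemia differed between the genotypes by a test of the difference itself. The log2 fold change of *Fcrls* by tFCI was lower in miKO than in WT by -0.906 (SE 0.23, edgeR interaction, adjusted p = 0.0393), and *Fcrls* was lower in miKO-tFCI than in miKO-Sham in all 3 libraries while WT-tFCI and WT-Sham overlapped. The log2 fold change of *Olfml3* by tFCI differed by -0.912 (SE 0.19, edgeR interaction, adjusted p = 0.0137), with all 3 miKO-tFCI libraries below miKO-Sham and all 3 WT-tFCI libraries above WT-Sham. The call of *Fcrls* was lost in 10 of 21 alternative fits (edgeR, adjusted p up to 0.17), and that of *Olfml3* was lost without WT-tFCI replicate 2 or without WT-tFCI replicate 3 (edgeR, adjusted p up to 0.0537).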

How the results depend on the processing

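Counts of identity genes called in the 4 comparisons between groups stayed within 1.5 times the main count under every alternative run, 23 for each. The interaction count did not. It was 2 in the fit reported, 1 without the batch term and 1 with the replicate block, and it went from 0 to 2 when libraries were left out in turn, with 0 without WT-tFCI replicate 2 or 3. The cause was not tested. Whether the replicate numbers pair the samples was not settled. Deviations of same-numbered libraries correlated from -0.0607 to 0.666, with medians of 0.14, -0.00713 and 0.224 for replicates 1, 2 and 3. Those of libraries with other numbers correlated from -0.504 to 0.395, with a median of -0.073. Replicate 1 is also batch 1, so that batch and pairing cannot be told apart there. The replicate block changed no other count by more than 1.5 times. No fold change of the 9 genes that was called reversed its sign. Over all alternatives 953 fold changes stayed on their side of the thresholds, 22 lost a call and 6 gained one. Fits that left out a library of a group rest on 2 libraries there. An SE of 0.25 for *P2ry13* and 0.23 for *Gpr34* in miKO-Sham vs. WT-Sham limited the size of difference that 3 libraries a group could show.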
